A study of Mus musculus with 5 samples.

Results

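The genes described here encode the glycolytic pathway and the transcriptional response to low oxygen. They were taken from a list of 36 genes, and every probe of the array annotation that carries one of these gene symbols was used. The annotation named 82 probes for 34 of the 36 genes, out of 45018 probes in all. Gpi1 and Eno1 had no named probe, so their expression was not analysed, and they enter only the promoter counts. Of the 34 genes, 14 had a single probe and 20 had more than 1.

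RNA came from 5 cultures of fetal liver pro-B cells, the early B-lymphocyte precursors, of mouse embryos at 16.5 days post coitum, grown with interleukin-7 on OP-9 stromal cells. All cultures received 4-hydroxytamoxifen for 24 hours, labelled as 2 mM, to switch on an oestrogen-receptor fusion of Cre recombinase, and RNA was taken after 4 more days. The 2 control cultures (control 3 and control 6, after the last number in their titles) were Ebf+/fl, so that Cre can remove only 1 of the 2 alleles of Ebf1, a transcription factor of the B lineage; they were treated heterozygotes and not untreated or wild-type cells. The 3 deleted cultures (deleted 4, 5 and 7) were Ebf fl/fl, with both alleles open to Cre. The first number in the titles was 111 in the controls and 93 in the deleted cultures, so genotype and whatever that number stands for cannot be told apart. No label names the promoter that drives Cre, and the labels do not say whether cultures of a group came from separate embryos, so the tests measure the spread between these cultures.

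Glycolysis splits glucose into pyruvate in the cytosol and yields ATP without oxygen. Lactate dehydrogenase turns pyruvate into lactate, which monocarboxylate transporters carry across the membrane. Hypoxia-inducible factor (HIF) is a transcription factor whose alpha subunit is marked for destruction by oxygen-dependent prolyl hydroxylases. When oxygen is low the subunit accumulates, and HIF raises glucose transporters, most glycolytic enzymes and genes that limit mitochondrial use of pyruvate, through DNA sites with the core ACGTG or GCGTG. Dividing lymphoid precursors use glycolysis for energy and for biosynthesis.

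All levels are log2 intensities after subtraction of the 75th percentile of the same array, so 0 is that percentile and a difference of 1 is 2-fold. A gene is represented by its brightest probe, and probes of different genes were not set against each other. Array sums of intensity ran from 66780381 to 79527111, and all 34 genes lay above the 40th percentile on all 5 arrays, the limit used here for a dim signal. One of 3 Ebf1 probes, for AK036716, stood at -1.47 and -1.30 in control 3 and control 6 and at -4.19, -5.01 and -4.02 in deleted 4, 5 and 7 (limma adjusted p = 0.00375 over 28007 probes). The other Ebf1 probes had log2 fold changes of -0.25 and 0.44 and did not pass, and where the probes lie relative to the deleted part was not determined here. Of 12 B-lineage markers 11 had a probe, all of them were above the dim limit on some array, and their summed linear level ran from 1470 to 1567 times the 75th percentile in controls and from 712 to 918 in deleted cultures. Sums of the other marker lists were 1.62 to 1.72 against 1.46 to 2.22 for 12 stromal genes and 4.46 to 14.9 against 2.58 to 2.98 for 11 myeloid genes. They were 2.03 to 3.3 against 1.44 to 1.85 for 11 T-cell genes, 5.02 to 6.81 against 7.3 to 8.75 for 12 NK and innate lymphoid genes, and 11 to 12 against 8.19 to 11.4 for 10 erythroid genes. Dcn, Lum and Postn (stromal), Elane, Csf3r, S100a8 and S100a9 (myeloid), Cd247, Cd8a and Trat1 (T cell), Ncr1, Gzmb, Gzma, Eomes and Gata3 (NK) and Klf1, Alas2, Epb42, Ermap and Rhag (erythroid) were at or below the dim limit on every array. The part of these cell types in the results below was not tested, and in bulk RNA fewer cells of a type and less RNA per cell cannot be told apart.

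Between the genotypes 6 of the 34 genes differed. Slc16a1, Bnip3, Ndrg1 and Pfkp fell in the deleted cultures, and Slc2a3 and Pfkfb4 rose. The 4 lower genes compare with 8.74% called lower among 13419 genes tested, and the 2 higher genes with 8.58% called higher (limma, Benjamini-Hochberg adjusted p under 0.05 over all genes tested). Together 17.6% of the members were called against 17.3% of all genes, so the share of called members was near the background. Calls in the higher direction made up 49.5% of the calls over all genes, a share that became 56.4% under median scaling and 38.6% when arrays were left unscaled. A second pattern ran across the 2 controls: control 3 exceeded control 6 in 31 of the 34 genes, against 48.5% of all genes, by a median of 0.90 on the log2 scale, whereas the median over all genes tested was -0.01. Both patterns are given below gene by gene.

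**Figure D1:**
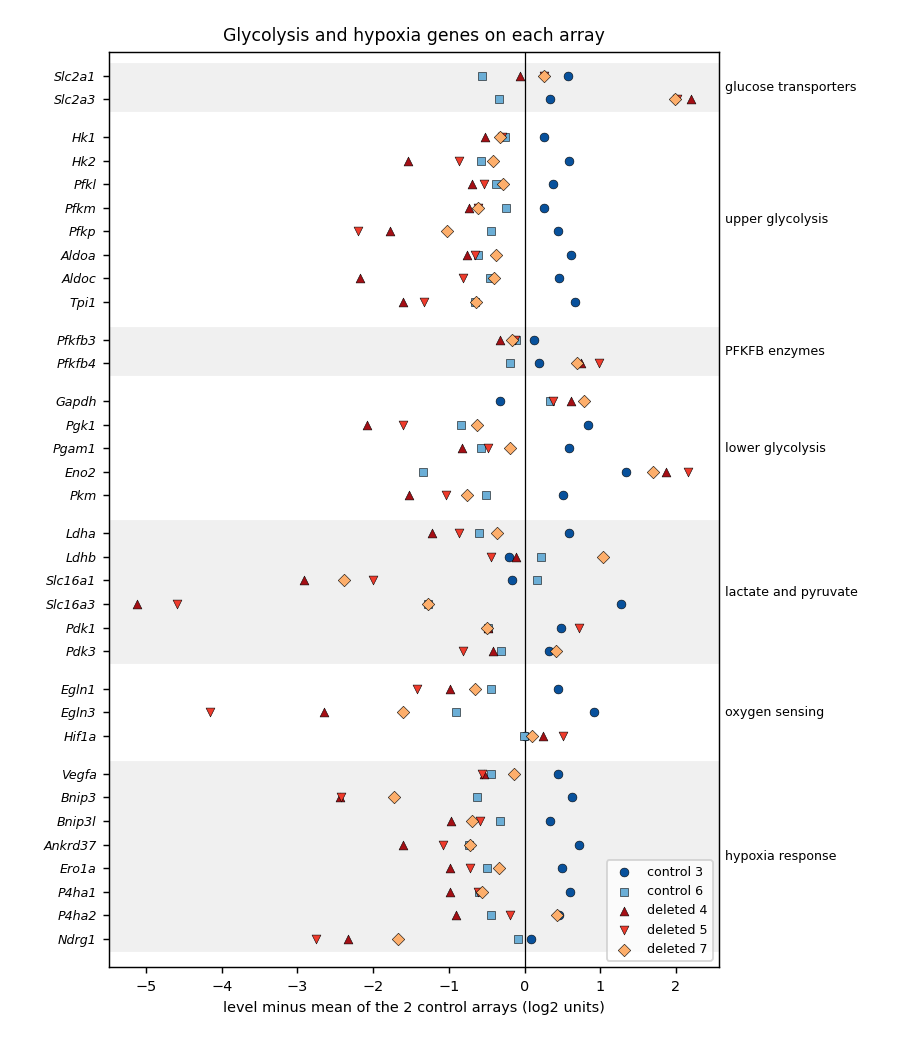
Level of each of the 34 genes on each array, minus the mean of the 2 controls of that gene (x axis, log2 units), with genes grouped by role on the y axis and 1 symbol per array. Control 3 is the highest array for 25 genes, and Slc2a3, Slc16a1, Bnip3, Ndrg1 and Pfkp show the deleted arrays apart from both controls.

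The stretches of 250 bases before the transcription start are shown for 6 genes because they hold the HIF core motifs and belong either to called genes or to enzymes with a wide gap between the controls. The sequences are RefSeq's, build GRCm38.p6, printed 5′ to 3′ in the direction of the gene, with ACGTG or GCGTG on either strand in capitals.
Slc16a1, chr3:104638414-104638663, plus strand: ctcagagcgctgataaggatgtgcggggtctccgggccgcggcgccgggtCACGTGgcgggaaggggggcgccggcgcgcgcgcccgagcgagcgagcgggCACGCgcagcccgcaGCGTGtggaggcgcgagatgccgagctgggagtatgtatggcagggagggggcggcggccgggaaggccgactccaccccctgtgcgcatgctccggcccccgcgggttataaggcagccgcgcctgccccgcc
Bnip3, chr7:138909507-138909756, minus strand: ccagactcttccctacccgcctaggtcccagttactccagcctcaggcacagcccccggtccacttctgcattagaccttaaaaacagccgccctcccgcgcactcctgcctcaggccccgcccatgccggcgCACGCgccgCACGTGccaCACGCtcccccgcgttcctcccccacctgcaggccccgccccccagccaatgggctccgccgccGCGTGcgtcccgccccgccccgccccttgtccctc
Pfkp, chr13:6648772-6649021, minus strand: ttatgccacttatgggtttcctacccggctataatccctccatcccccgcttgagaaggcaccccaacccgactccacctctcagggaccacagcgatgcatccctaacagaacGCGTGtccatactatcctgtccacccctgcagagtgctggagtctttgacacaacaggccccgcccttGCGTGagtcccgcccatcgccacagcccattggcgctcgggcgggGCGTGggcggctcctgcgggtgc
Pfkfb4, chr9:108991652-108991901, plus strand: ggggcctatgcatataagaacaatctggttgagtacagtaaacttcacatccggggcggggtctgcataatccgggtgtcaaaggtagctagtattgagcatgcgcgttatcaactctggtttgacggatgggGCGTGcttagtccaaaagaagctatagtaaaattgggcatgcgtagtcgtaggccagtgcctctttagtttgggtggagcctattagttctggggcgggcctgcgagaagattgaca
Pgk1, chrX:106186850-106187099, plus strand: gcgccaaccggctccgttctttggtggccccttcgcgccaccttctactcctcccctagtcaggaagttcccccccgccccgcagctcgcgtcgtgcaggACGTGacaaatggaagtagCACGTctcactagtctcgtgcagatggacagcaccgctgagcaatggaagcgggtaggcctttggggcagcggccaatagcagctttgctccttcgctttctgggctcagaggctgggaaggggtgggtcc
Ldha, chr7:46845554-46845803, plus strand: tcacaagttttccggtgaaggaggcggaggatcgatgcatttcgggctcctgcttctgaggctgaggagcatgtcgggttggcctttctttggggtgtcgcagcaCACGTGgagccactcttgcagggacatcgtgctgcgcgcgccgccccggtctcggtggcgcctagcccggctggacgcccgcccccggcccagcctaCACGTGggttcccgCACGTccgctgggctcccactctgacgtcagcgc
Counting both strands, so that a CACGTG palindrome counts as 2 matches of ACGTG, the Bnip3 stretch held 5 core matches and that of Slc16a1 held 4, each with 1 CACGTG, a sequence that is also the E-box bound by Myc proteins. The Ldha stretch, the first of 2 promoters listed for that gene, held 5 matches with 2 palindromes, and Pgk1 held 2 matches of ACGTG and none of GCGTG. Pfkp held 3 matches of GCGTG and Pfkfb4 held 1. Over windows of 250 bases before to 50 after the start, 27 of 47 promoters of 33 listed genes (57.4%) held ACGTG, against 24.2% of 13677 promoters of genes tested on the arrays and 19.6% of all 32851 promoters of the table. For GCGTG the shares were 59.6%, 47.1% and 32.4%, and for either motif 80.9%, 58.2% and 43.8%. The 6 printed genes were picked for the motif. Eno2 and Tpi1, enzymes in which control 3 lay 2.68 and 1.32 above control 6, held neither motif in that window. Many of the listed genes are textbook HIF targets, so the list was not blind to this motif, and some genes have more than 1 window. The 47 promoters included those of Eno1 and Gpi1, which had no named probe on the arrays. Every Eno1 window held GCGTG without ACGTG, and the Gpi1 window held neither. The palindromic core CCCNNGGG, which Ebf1 is known to bind and which was added after seeing the data, was in 19.1% of the members' promoters, 17.7% of those of tested genes and 13.7% of all. A match is a letter match only, and Ndrg1, Slc2a3 and Bnip3l had no entry in the table.

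Of the glucose transporters, Slc2a3 rose and Slc2a1 did not pass the test. Slc2a3 encodes GLUT3, a high-affinity transporter. It stood at 0.68 and 0.01 in control 3 and control 6 and at 2.55, 2.36 and 2.33 in deleted 4, 5 and 7, so every deleted culture lay above both controls. The rise was 4.19-fold (log2 fold change 2.07, SE 0.22, limma adjusted p = 0.0028), and it passed in each of the 5 fits that left out an array. The other 2 Slc2a3 probes were above the dim limit on 3 arrays and on 1, and had log2 fold changes of -0.19 and 0.02, and the mean of all 3 gave 0.63 (adjusted p = 0.224). Slc2a1 encodes GLUT1, the widespread basal transporter and a HIF target. Its levels were 3.73 and 2.60 in the controls and 3.10, 3.41 and 3.42 in the deleted cultures, which all fell between the controls. The log2 fold change was 0.15 with a 95% interval of -0.62 to 0.92.

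The upper steps of glycolysis run from hexokinase to triose phosphate isomerase. All 8 genes measured there had lower mean levels in deleted cultures (log2 fold changes -1.67 to -0.38), and 1 of them, Pfkp, passed the test. Hk1, the hexokinase of most tissues, stood at 3.38 and 2.86 in the controls and at 2.60, 2.82 and 2.79 in deleted 4, 5 and 7. Hk2, the inducible hexokinase, stood at 1.45 and 0.30 and at -0.67, 0.00 and 0.45. The deleted cultures lay below both controls for Hk1 and overlapped them for Hk2, whose value in deleted 7 was above that in control 6. The Hk1 separation was at the brightest of 6 probes, with log2 fold changes from -0.91 to 0.18, the last at a probe that was dim on every array. Another Hk1 probe, above the dim limit on all 5 arrays, overlapped, at -1.26 in control 6 and -1.21 in deleted 4.

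Phosphofructokinase catalyses the committed step, and its 3 subunits were measured by separate genes. Pfkp, the platelet-type subunit, stood at 2.66 and 1.78 in control 3 and control 6 and at 0.44, 0.02 and 1.19 in deleted 4, 5 and 7. It fell 3.18-fold (log2 fold change -1.67, SE 0.39, limma adjusted p = 0.0339), and the groups did not overlap. A second probe, for BC050264, had a log2 fold change of -1.26 (adjusted p = 0.0446 over all probes), and the weakest probe had -0.13. Pfkp did not pass without control 3 (adjusted p = 0.197), deleted 4 (0.0658) or deleted 5 (0.0901). The muscle-type subunit gene Pfkm stood at 1.84 and 1.35 against 0.85, 0.98 and 0.97, also without overlap, at an adjusted p of 0.0543 by limma. Pfkl, the liver-type subunit gene, stood at 2.99 and 2.23 against 1.92, 2.07 and 2.33, with deleted 7 above control 6.

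None of the 3 aldolase and isomerase genes passed the test, and the controls lay 0.90 to 1.32 apart. Aldoa, the main aldolase, stood at 7.99 in control 3 and 6.77 in control 6, and at 6.62, 6.73 and 7.00 in deleted 4, 5 and 7. Aldoc, a second aldolase, stood at 2.02 and 1.11 and at -0.60, 0.76 and 1.16. Tpi1, the isomerase that joins the 2 triose products, stood at 6.09 and 4.76 and at 3.81, 4.09 and 4.78. In all 3 genes deleted 7 lay above control 6 and control 3 was the highest array. A weaker second Tpi1 probe, for AK053780, had a log2 fold change of 0.60.

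Pfkfb3 and Pfkfb4 encode enzymes that set the level of fructose 2,6-bisphosphate, the activator of phosphofructokinase. Pfkfb4 stood at 2.59 and 2.21 in the controls and at 3.14, 3.38 and 3.09 in deleted 4, 5 and 7, with all deleted cultures higher. It rose 1.75-fold (log2 fold change 0.80, SE 0.17, limma adjusted p = 0.0261). The call held without deleted 7 (adjusted p = 0.0425) and was lost without control 3 (0.0543), control 6 (0.111), deleted 4 (0.0569) or deleted 5 (0.0661). Pfkfb3 stood at 3.47 and 3.23 against 3.03, 3.22 and 3.19 at its brightest probe. Its 2 dimmer probes had the opposite sign, with log2 fold changes of 0.95 (adjusted p = 0.0419 over all probes) and 0.80, so the direction of Pfkfb3 depends on the probe.

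The lower steps from glyceraldehyde phosphate to pyruvate gave no call among 5 genes. Pgk1, phosphoglycerate kinase, stood at 6.69 in control 3, 5.01 in control 6 and 3.77, 4.24 and 5.22 in deleted 4, 5 and 7. Control 3 was the highest array and deleted 4 the lowest on all 11 Pgk1 probes, whose log2 fold changes lay between -1.60 and -1.41, against an SE of 0.57 between cultures. Pgam1, the mutase, stood at 5.34 and 4.18 against 3.93, 4.28 and 4.57, with deleted 5 and 7 above control 6. Pkm, pyruvate kinase of muscle and most proliferating cells, stood at 5.07 and 4.05 against 3.03, 3.52 and 3.80, below both controls in every deleted culture (log2 fold change -1.11, SE 0.34, limma adjusted p = 0.0717). At the weakest Pkm probe deleted 5 and 7, at -0.81 and -0.78, lay above control 6, at -0.90 (log2 fold change -0.46). Eno2, the neuronal enolase, went the other way, at -1.75 and -4.43 in the controls and -1.22, -0.93 and -1.39 in the deleted cultures. Its log2 fold change of 1.91 carried an SE of 0.71, since control 6 was 2.68 below control 3. Without control 3 it was 3.25, and without control 6 it was 0.57. Eno2 was weak in control 6, and with 16 added to each intensity the log2 fold change was 1.51. A second Eno2 probe stood at -5.87 in control 6 and was above the dim limit on 4 arrays. The only Gapdh probe, for AK169742, was weak, at -4.52 and -3.86 against -3.58, -3.81 and -3.41, and whether it measures the main Gapdh transcript was not determined here.

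Among the 6 genes that handle pyruvate and lactate, Slc16a1 fell, with the largest fall among the 4 members called lower. Slc16a1 encodes MCT1, a transporter of lactate and pyruvate. It stood at 2.99 and 3.32 in control 3 and control 6 and at 0.25, 1.16 and 0.77 in deleted 4, 5 and 7. The fall was 5.38-fold (log2 fold change -2.43, SE 0.27, limma adjusted p = 0.0033), and the groups did not overlap. Its other 2 probes had log2 fold changes of -2.48 and -2.37, and the call held in every fit that left out an array (log2 fold changes -2.64 to -2.19). Slc16a1 was also 1 of the 3 members in which control 6 lay above control 3, the others being Ldhb and Gapdh.

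Slc16a3 encodes MCT4, the lactate exporter of highly glycolytic cells and a HIF target. It stood at 3.53 in control 3, 0.98 in control 6, -2.86 in deleted 4, -2.33 in deleted 5 and 0.98 in deleted 7. Deleted 7 was thus level with control 6, and deleted 4 and 5 were far below. The log2 fold change of -3.66 had an SE of 1.24 and did not pass (limma adjusted p = 0.0908), but it was -4.85 (0.0169) without deleted 7 and -2.38 (0.418) without control 3. Ldha, the lactate-forming dehydrogenase subunit, stood at 6.44 and 5.25 against 4.63, 4.99 and 5.49, and Ldhb, the heart-type subunit, at -1.47 and -1.05 against -1.37, -1.71 and -0.22. Pdk1 and Pdk3 encode kinases that switch off pyruvate dehydrogenase. Pdk1 stood at 3.18 and 2.22 against 2.22, 3.42 and 2.20, and Pdk3 at -0.01 and -0.64 against -0.75, -1.14 and 0.08. Neither kinase separated the genotypes, and at the brightest probes deleted 5 was the highest array for Pdk1 and the lowest for Pdk3. At the second probes control 3 was the highest for Pdk1 and control 6 the lowest for Pdk3. Those probes had log2 fold changes of -0.65 and 0.03.

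**Figure D2:**
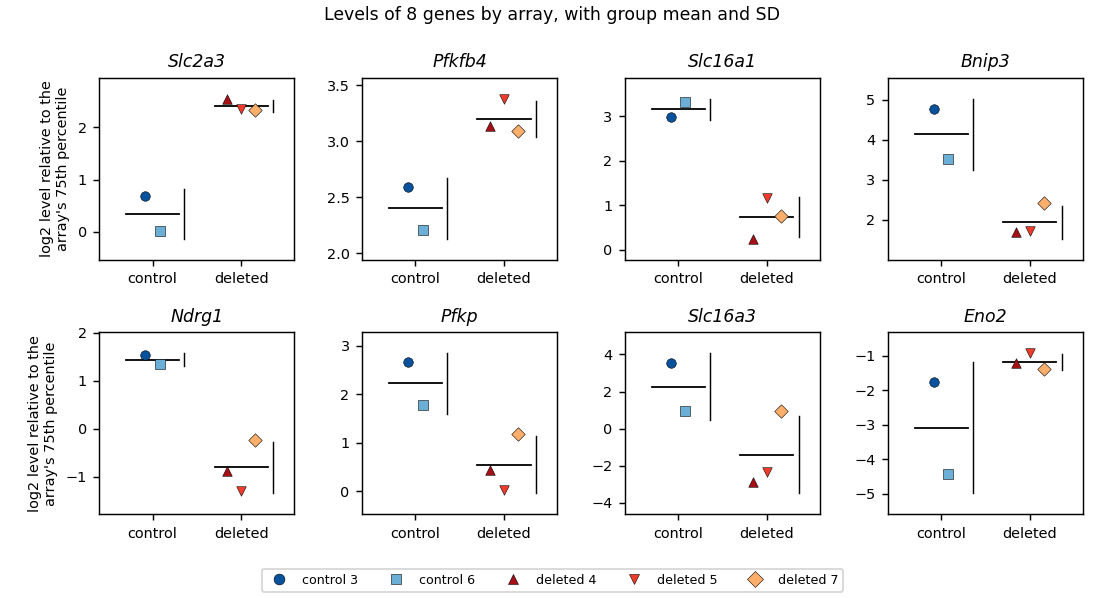
Level on each array (y axis, log2 relative to the array's 75th percentile) for the 6 called genes and for Slc16a3 and Eno2, with 1 symbol per array, the group mean as a horizontal line and the SD as a vertical line (n = 2 controls, n = 3 deleted). The controls lie close together for Slc16a1 and Ndrg1 and far apart for Slc16a3 and Eno2, and deleted 7 is level with control 6 at 0.98 for Slc16a3.

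The oxygen-sensing genes did not pass, although 2 of the 3 were lower in every deleted culture. Hif1a, the alpha subunit of HIF, stood at 0.56 and 0.55 in the controls and at 0.80, 1.07 and 0.66 in deleted 4, 5 and 7 (log2 fold change 0.28, 95% interval -0.13 to 0.70). HIF is controlled mainly through the stability of this protein, which arrays do not measure. Egln1 encodes PHD2, the main prolyl hydroxylase and itself a HIF target, and stood at 2.14 and 1.26 against 0.72, 0.28 and 1.04 (limma adjusted p = 0.0771). Egln3, which encodes the inducible PHD3, stood at 0.37 and -1.46 against -3.20, -4.70 and -2.16. Its log2 fold change was -2.81 (SE 0.81, adjusted p = 0.0606), and -3.40 (0.036) without deleted 7. It was -1.89 without control 3 and -2.14 (0.122) without deleted 5, in which Egln3 was weak. Of the 12 alternative settings only 1, with 16 added to each intensity, called Egln3 (-2.27, limma adjusted p = 0.0412).

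All 8 other genes of the hypoxia response had lower means in the deleted cultures (log2 fold changes -2.25 to -0.23), and Bnip3 and Ndrg1 passed the test. Bnip3 encodes a mitochondrial protein that promotes mitophagy. It stood at 4.77 and 3.51 in control 3 and control 6 and at 1.70, 1.71 and 2.42 in deleted 4, 5 and 7, a 4.59-fold fall (log2 fold change -2.20, SE 0.40, limma adjusted p = 0.0152). The groups did not overlap, and the call was lost without control 3 (log2 fold change -1.57, adjusted p = 0.0592) and without deleted 5 (-2.08, 0.062). Ndrg1, a stress-induced gene linked to growth arrest and differentiation, stood at 1.53 and 1.35 against -0.89, -1.31 and -0.23. It fell 4.77-fold (log2 fold change -2.25, SE 0.31, limma adjusted p = 0.00616), with an adjusted p of 0.0504 without control 3. The controls differed by 0.18 for Ndrg1 and by 1.26 for Bnip3.

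Bnip3l, a relative of Bnip3 that also acts in mitophagy, stood at 4.35 and 3.69 against 3.05, 3.43 and 3.33, without overlap (limma adjusted p = 0.0685). Vegfa, the angiogenic growth factor, stood at 3.01 and 2.13 against 2.04, 2.01 and 2.43, and its 12 probes had log2 fold changes between -0.41 and 0.00. Ankrd37, a small ankyrin-repeat protein and HIF target, stood at 4.33 and 2.88 against 2.01, 2.53 and 2.89. For both genes deleted 7 lay above control 6. Ero1a, an oxidase of protein folding in the endoplasmic reticulum, stood at -0.31 and -1.30 against -1.79, -1.52 and -1.14. P4ha1 and P4ha2 encode collagen prolyl hydroxylase subunits; P4ha1 stood at 2.38 and 1.18 against 0.80, 1.16 and 1.22, and P4ha2 at -2.34 and -3.23 against -3.69, -2.98 and -2.36. At their brightest probes these 3 genes overlapped between the genotypes, with control 3 the highest array in each. The weaker Ero1a probe did not overlap, at -1.25 and -2.37 against -2.87, -3.09 and -2.60 (log2 fold change -1.04).

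**Figure D3:**
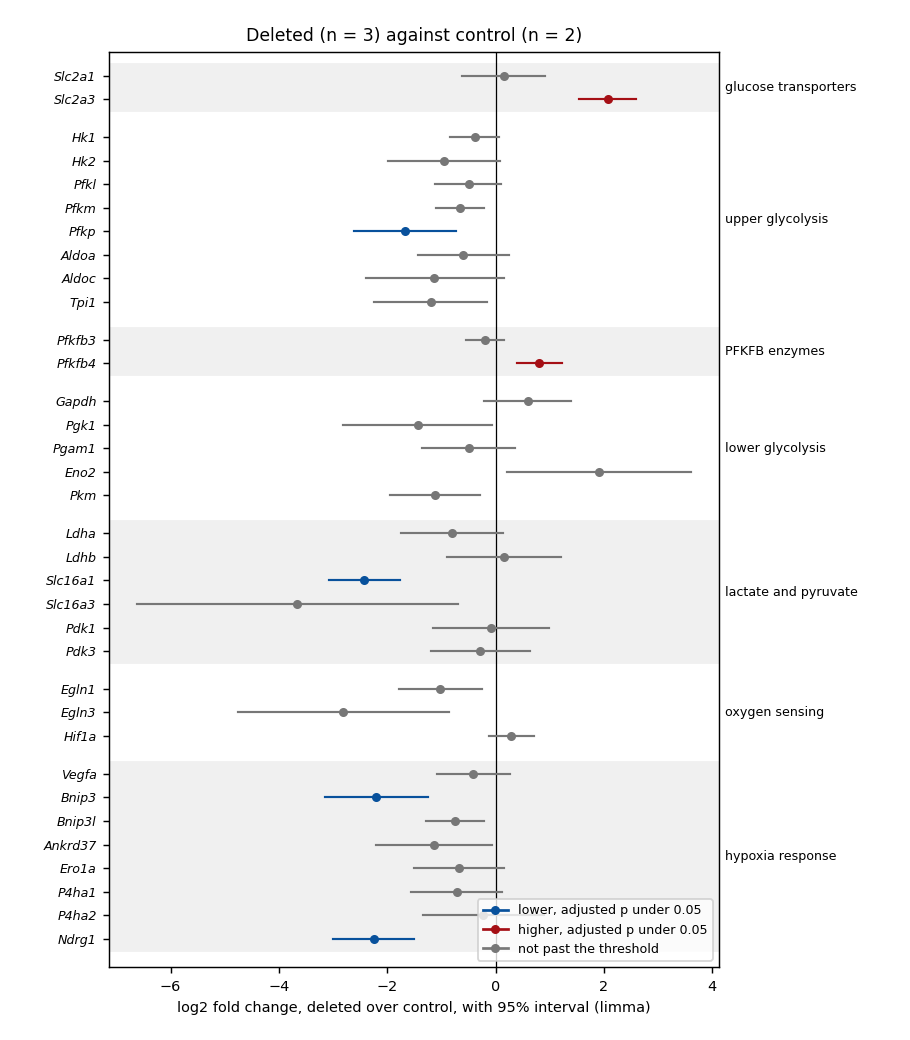
Log2 fold change of deleted (n = 3) over control (n = 2) with its 95% interval from limma (x axis) for the 34 genes, grouped by role. The 4 lower called genes lie between -2.43 and -1.67, the 2 higher ones at 0.80 and 2.07, and the widest interval is that of Slc16a3, from -6.62 to -0.70.

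Across the 34 genes the deleted cultures all lay below both controls in 12, against 21.2% of all genes tested, and all above both in 5, against 30.5%. The lower ones were Hk1, Pfkm, Pfkp, Pfkfb3, Pkm, Slc16a1, Slc16a3, Egln1, Egln3, Bnip3, Bnip3l and Ndrg1, with Slc16a3 separated by less than 0.01. Pfkfb3 and Hk1 were also narrowly separated, at 3.23 and 2.86 in control 6 against 3.22 and 2.82 in deleted 5. At its 2 dimmer probes Pfkfb3 lay above both controls in every deleted culture. Hk1, Pfkp and Pkm overlapped at some of their dimmer probes. The higher ones were Slc2a3, Pfkfb4, Gapdh, Eno2 and Hif1a. The remaining 17 genes overlapped at their brightest probes, against 48.3% of all genes, though some of their dimmer probes did not. Probe by probe, 7 of 79 tested member probes were called lower and 3 higher, among 28007 probes of which 6.88% were called lower, 5.93% higher and 12.8% either way. The median log2 fold change over the 34 genes was -0.67, against 0.10 over all genes tested, and 27 of 34 fitted values were below 0, against 42.3% of all genes.

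The size of this shift depended on which control was used. All 3 deleted cultures lay below control 3 in 26 of the 34 genes (30.5% of all genes) and below control 6 in 12 (27.7% of all genes). Without control 6 the median was -1.13 and 12 members were called lower, among 5.84% of all genes called lower in that fit. The calls were Aldoa, Ankrd37, Bnip3, Bnip3l, Egln1, Ndrg1, P4ha1, Pfkm, Pfkp, Pkm, Slc16a1 and Tpi1. Without control 3 the median was -0.15 and 1 member, Slc16a1, was called lower, among 2.56% of all genes. Slc2a3 was called higher in both fits (5.27% of all genes higher without control 6), and the fit without control 3 added Eno2 (2.85% higher). With 1 control left, that control was taken to vary like the deleted group. Without deleted 4 there were 3 members lower (5.89% of all genes) and 1 higher (4.71%), and without deleted 5 there were 2 lower (5.09%) and 1 higher (4.31%), with 9.4% of all genes called. Without deleted 7 there were 6 lower (7.59%), with Egln3 and Slc16a3 added, and 2 higher (7.06%), with 14.6% of all genes called.

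Control 3 exceeded control 6 at least 2-fold in 14 of the 34 genes, against 5.84% of all genes tested, and was the highest of the 5 arrays in 25, against 23.7%. Over all genes the lower and upper quartiles of control 3 minus control 6 were -0.26 and 0.26 (SD 0.69). The widest gaps were 2.68 for Eno2, 2.55 for Slc16a3, 1.83 for Egln3, 1.67 for Pgk1, 1.46 for Ankrd37 and 1.32 for Tpi1. The gap of Eno2 rests on a weak level in control 6, at -4.43. Hif1a itself differed by 0.01. Under median scaling or without scaling the median gap over the members was 0.82 and over all genes -0.09. With 1 array of each culture, this gap has no replicate and no test.

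**Figure D4:**
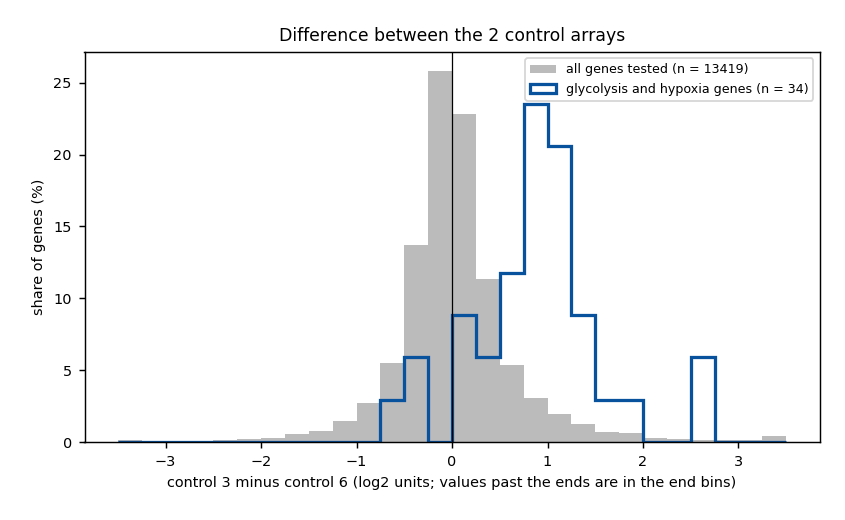
Control 3 minus control 6 (x axis, log2 units) as the share of genes in each bin of width 0.25 (y axis, percent), in grey for all 13419 genes tested and as a blue line for the 34 glycolysis and hypoxia genes. All genes centre near 0, with a median of -0.01, and the 34 genes near 1, with a median of 0.90.

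Among the deleted cultures deleted 7 was the highest in 24 of the 34 genes, against 24.1% of all genes, and deleted 4 the lowest in 21, against 32.6%. Relative to the control mean of each gene, the median over the members was 0.45 in control 3, -0.45 in control 6, -0.94 in deleted 4, -0.64 in deleted 5 and -0.39 in deleted 7. Control 6 thus lay between deleted 5 and deleted 7. A list of 14 proliferation genes followed the same order within each genotype, at 0.52 and -0.52 in the controls and -3.87, -1.84 and -1.21 in deleted 4, 5 and 7. Of these 14 genes 2 were called lower, beside 8.74% of all genes tested. The part of proliferation in the glycolysis and hypoxia values was not tested. The 36 other glycolysis and pyruvate genes did not follow that order, with medians of 0.00 in both controls and 0.23, 0.34 and 0.10 in deleted 4, 5 and 7. The 43 further hypoxia-linked genes had medians of 0.11 and -0.11 in the controls and -0.37, -0.33 and -0.34 in deleted 4, 5 and 7. These medians departed from that order only between deleted 5 and deleted 7. The means over the same 43 genes followed it, at 0.22 and -0.22 and at -0.56, -0.45 and -0.41. All genes tested had medians between -0.01 and 0.18.

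**Figure D5:**
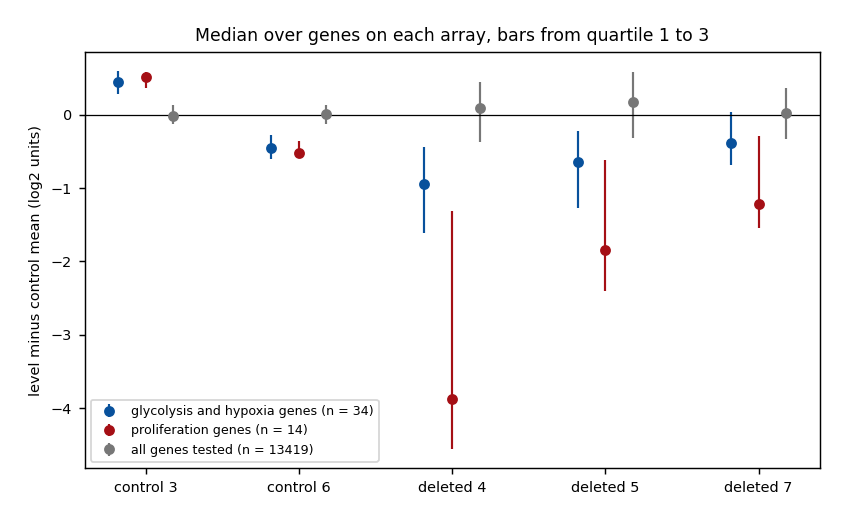
Median level minus the control mean (y axis, log2 units) on each array over the 34 glycolysis and hypoxia genes, 14 proliferation genes and all 13419 genes tested, with bars from the lower to the upper quartile over genes. The 34 genes run from 0.45 in control 3 to -0.94 in deleted 4, and all genes stay near 0.

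Other genes of these pathways came from lists that do not hold the 34. Of 36 tested genes of glycolysis, its side branches and pyruvate use, 5 rose and 2 fell, with a median log2 fold change of 0.25, where 8.58% of all genes tested were called higher and 8.74% lower. Slc16a7, which encodes the pyruvate transporter MCT2, stood at -3.28 and -4.92 in the controls and -0.68, -0.78 and -1.27 in deleted 4, 5 and 7, a log2 change of 3.19 with SE 0.49 (adjusted p = 0.00867 by limma), opposite in sign to Slc16a1. Its level in control 6 was weak, though above the dim limit. A second Slc16a7 probe, above the dim limit on 1 array, had -1.64. Pgls, an enzyme of the pentose phosphate pathway, stood at 5.80 and 5.42 against 3.21, 3.73 and 3.60, a log2 fold change of -2.10. Gys1, glycogen synthase, was the other lower gene, at -1.33. Adpgk, an ADP-dependent glucokinase, Pgm3, Taldo1 and the mitochondrial pyruvate carrier gene Mpc1 rose by 1.14, 0.69, 0.67 and 0.65. The calls of Slc16a7 and Pgls held in every fit that left out an array, and those of the other 5 were lost in at least 1.

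Of 43 further hypoxia-linked genes 10 fell and 5 rose, with a median log2 fold change of -0.32, beside the same 8.74% called lower and 8.58% called higher among all genes. Plod2, a collagen lysyl hydroxylase and HIF target, stood at 1.06 and 0.00 in the controls and -4.22, -4.93 and -3.95 in the deleted cultures, a log2 change of -4.90 with SE 0.42 (adjusted p = 0.00162 by limma). The deleted levels of Plod2 were weak, though above the dim limit on every array. Adm, the peptide adrenomedullin, fell by 2.51. Ero1b, the second folding oxidase, had a log2 fold change of -1.89 at its brightest probe and of -0.55, -1.47 and 0.66 at the others. Cited2, a competitor of HIF for its coactivators, rose by 2.10 from 1.11 and 1.19 to 3.14, 3.54 and 3.08, and its other 3 probes rose by 1.41 to 1.63. Hmox1, haem oxygenase, rose by 1.67. These 5 were the calls that held in every fit that left out an array. Epas1, the HIF-2 alpha subunit gene, rose by 2.29 from levels near the dim limit, and did not pass without control 3 (adjusted p = 0.0715), with 0.12 at its second probe. Stc2 and Ier3 had log2 fold changes of -3.63 and -2.02, lost without control 3, control 6 or deleted 5, and Stc2 was above the dim limit in 1 of the 3 deleted cultures. At the brightest probes the gap between the controls that marked the members was small for Cited2, Hmox1 and Ero1b (-0.26 to -0.09). It was reversed for Adm (-0.95) and present for Plod2 (1.06). At the other 3 Cited2 probes it was reversed, at -0.43, -0.66 and -0.73, and at the other Ero1b probes it was -0.55, -0.16 and 0.08.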

How the data were processed

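RNA of 5 cultures was hybridised to 1-colour (Cy3) Agilent arrays, from 0.2 µg of total RNA, per the labels. The authors deposited 1 linear intensity per probe, and the submitters' processing notes name Agilent Feature Extraction; no source used here gives its version, background handling or spot flags. Here the intensities were put on a log2 scale relative to the 75th percentile of their array. The platform annotation gave 1 gene symbol to 33653 of 45018 probes, several to 56 and none to 11309. Genes were represented by their brightest probe, and 13419 genes above the array's 40th percentile on at least 2 arrays were tested (limma 3.58.1, R 4.3.3; lmFit and trended eBayes, two-sided, Benjamini-Hochberg, threshold 0.05). Every adjusted p is from that fit unless a setting, a left-out array or the fit over 28007 probes is named. The number of arrays limits the precision. The fit was tested on simulated data with independent noise for each gene and array. A shift shared by many genes of a culture was not simulated. Every member is named; of the other pathway genes, up to 8 past the threshold per list. The members and lists were chosen with earlier results of these data known. No genome was used; promoter windows are from a RefSeq table of build GRCm38.p6. Alternatives were other scalings, probe rules, filters, an added intensity, variance settings, array weights and leaving out each array.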

Additional observations from a re-analysis of the deposited data

How the results depend on the processing

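No paired analysis was possible because no label links a control culture to a deleted culture. Of the 34 members, 25 kept their direction in the 12 alternatives and the 5 fits that left out an array. Leaving out each array in turn gave 727 to 1965 genes called in place of 2324, 1 to 12 members called lower in place of 4, 1 to 2 called higher in place of 2, 7 to 18 other pathway genes called, and a median over the members of -1.13 to -0.15. In these fits the log2 fold change ranged from -0.42 to 0.71 for Slc2a1, -1.21 to 0.01 for Aldoa, -1.08 to 0.08 for Pgam1, -0.28 to 0.46 for Ldhb, -0.56 to 0.39 for Pdk1, -0.62 to 0.04 for Pdk3, -0.85 to 0.03 for Vegfa and -0.67 to 0.22 for P4ha2, none of them called. With the mean of a gene's probes, 1 member was called higher, with 16.3% of all genes called either way. Pfkfb3 and P4ha2 then had values of 0.52 and 0.04. Averaging probes that share an accession, chosen after seeing the data, also gave 0.52 for Pfkfb3, since its probes differ in sign. Without the variance trend 1575 genes, 11.7% of all genes tested, were called in place of 2324. In that fit 1 member was called higher and 13 other pathway genes were called. Pfkp and Pfkfb4 stood there at limma adjusted p of 0.0706 and 0.0614, and the cause was not tested. Testing every probe gave 3587 calls, over more features. Slc16a1, Bnip3 and Ndrg1 were called in all 12 alternatives. Without spot flags, dim probes could not be judged beyond the percentile used.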
